A study of Mus musculus with 6 samples.

Results

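Expression of 8 genes of the Ras to ERK cascade was examined in the gastrocnemius muscle, the large muscle of the calf, of young *Hras*G12V and wild-type (WT) mice. The 8 genes were the Ras paralogs *Hras*, *Nras*, *Rras*, *Rras2* and *Mras*, the Raf kinases *Araf* and *Braf*, and the MEK kinase *Map2k1*. They were chosen by gene symbol from the 23997 symbols listed for each library, and all 8 were among the 13359 genes with a mean of at least 0.5 FPKM that were tested. FPKM is the number of mapped fragments per kilobase of transcript, scaled to the number of reads mapped, so it can be compared between genes within a library, apart from the trend over transcript length in mouse 2276 given below. The *Hras*G12V group held mice 2276, 2278 and 2279, of genotype Caggs-Cre+/HrasG12V/+. The WT group held mice 2277, 2280 and 2281, which the labels list with the genotype Hras+/+ and the strain Caggs-Cre-/HrasflG12V/+, so n = 3 mice per genotype, all 21 days old, with 1 library per mouse. The Caggs-Cre transgene drives Cre broadly, and its activity removes the WT coding segment of the floxed allele so that the G12V allele is expressed from the gene's own promoter. By the strain label the controls carried the floxed allele unrecombined and no Cre, so the presence of Cre and of the G12V allele cannot be told apart in this comparison. The methods describe the WT mice as littermates of the *Hras*G12V mice, but which mice shared a litter, and their sex and batch, is not given in the sources used here.

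Ras proteins are small GTPases that are held at the membrane by lipid anchors and switch between a GDP-bound and a GTP-bound form. GTP-bound Ras recruits Raf kinases, which phosphorylate MEK, which in turn phosphorylates ERK. In muscle this cascade is known for its part in myoblast proliferation and for restraining differentiation. Substitution of the glycine at codon 12 of HRAS slows GTP hydrolysis and leaves the protein active, and such germline changes cause Costello syndrome.

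The glycine codon that the G12V allele changes lies in the nucleotide-binding loop, which all 5 Ras paralogs share. For 4 of them the coding strand around it is shown because it is the site of the allele and because it shows how far the paralogs differ there at the level of the transcript. The windows are 30 bases long, from the GRCm38 genome with GENCODE vM21 exons, and capitals mark the glycine codon equivalent to *Hras* codon 12.
*Hras*, codon 12 in exon 2: gtggtgggcgctGGAggcgtgggaaagagt
*Rras*, codon 38 in exon 1: gtcgtaggcggcGGCggcgtgggcaagagc
*Rras2*, codon 23 in exon 1: gtggtcggcggtGGCggcgtgggcaagtcg
*Mras*, codon 22 in exon 2: gtggtgggagatGGTggtgtgggcaagagt
The *Hras* window is at chr7:141192890-141192919 on the minus strand and its capital codon at chr7:141192905-141192907. The *Rras* window is at chr7:45018115-45018144 (plus strand), that of *Rras2* at chr7:114117420-114117449 (minus) and that of *Mras* at chr9:99411505-99411534 (minus). Counted from 1 at the first base of the start codon, the allele is G35T, which turns the codon GGA into GTA and gives G12V in the protein. Against the *Hras* window, that of *Mras* differed at 5 bases and those of *Rras* and *Rras2* at 7 each. Over the whole coding sequence *Nras* was the paralog most like *Hras*, with 75.3% identical bases, and both genes have 189 codons. *Rras* (218 codons), *Rras2* (204) and *Mras* (208) carry extensions before the loop, so their glycine codon has a higher number.

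FPKM adds the transcripts of both *Hras* alleles, and it does not show which allele they came from. Reads were nominally 50 bases long, and the longest identical run in the pairwise alignments of the 5 coding sequences was 23 bases. By exact match, none of the 50-base stretches of *Hras*, *Rras*, *Rras2*, *Mras* and *Araf* transcripts occurred in another gene. Other genes held 38 of 4421 such stretches of *Nras* (0.860%), 7 of 2387 of *Map2k1* (0.293%) and 97 of 9679 of *Braf* (1.0%). All 97 of *Braf* were antisense to *Ndufb2*, a gene that overlaps its end. Library preparation kept strand, but whether the counting used it is not given in the sources used here, so a small part of the *Braf* signal is uncertain for that reason. *Araf*, on chromosome X from 20797814 to 20860519 (plus strand), overlaps *Syn1* on the other strand. The other kinases are *Braf* on chromosome 6 from 39603237 to 39725463 (minus strand) and *Map2k1* on chromosome 9 from 64185770 to 64253631 (minus strand), the latter with *Uchl4* on the opposite strand inside it. Of the Ras paralogs, *Hras* (chromosome 7, 141189105 to 141194005), *Rras2* (chromosome 7, 114046782 to 114117781) and *Mras* (chromosome 9, 99385420 to 99437381) lie on the minus strand. *Nras* (chromosome 3, 103058285 to 103067914) and *Rras* (chromosome 7, 45017961 to 45021647) lie on the plus strand.

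Some facts on the libraries bear on every value given here. Median levels over the tested genes lay between 6.39 and 6.64 FPKM, and read counts were not among the values used, so the precision of an FPKM is known only from the spread between mice. The fast-fiber genes *Pvalb* (10828 to 32969 FPKM) and *Mylpf* (10760 to 36114 FPKM) were high in all 6 libraries. Of the 8 muscle fiber markers, *Acta1* and *Myh4* were listed at 0 in all 6 libraries, *Ckm* in 5, *Myh1* in 2 and *Tnnt3* in 1, and a 0 of such a gene may be a failed estimate. The 8 B cell markers summed to 0.834 to 1.45 FPKM in WT mice and to 1.68 in mouse 2276, but to 92.7 and 74.3 in mice 2278 and 2279. The 8 T cell markers found summed to 0.869 to 1.11 FPKM in WT mice, 1.26 in mouse 2276, 39.6 in mouse 2278 and 51.0 in mouse 2279. The 6 neutrophil markers summed to 0.716 to 3.64 FPKM in WT mice and to 19.7, 131 and 51.8 in mice 2276, 2278 and 2279. The 6 endothelial markers summed to 168 to 202 FPKM in WT mice and to 141, 138 and 141 in mice 2276, 2278 and 2279. Of these, *Cdh5*, *Tie1* and *Flt1* were past the unadjusted limit of 0.05 and lower in all *Hras*G12V mice, while *Pecam1*, *Kdr* and *Emcn* overlapped between genotypes and *Emcn* was highest in mouse 2276 (28.9 FPKM). The unadjusted limit was passed by 5.18% of all genes tested with a higher level in *Hras*G12V and by 4.99% with a lower one. Of 5 satellite cell markers 2 were past it and higher (sums of 16.4 to 22.2 FPKM in WT mice and 24.4, 15.3 and 19.1), and of 5 Schwann cell markers 1 was (78.8 to 246 FPKM in WT mice and 117, 346 and 418). *Myod1*, the highest of the satellite cell markers, had a log2 fold change of -0.27, and *Calcr* overlapped between genotypes. *Pax7*, *Myf5* and *Chrdl2* were higher in each *Hras*G12V mouse than in any WT mouse, as were 8.11% of all genes tested. Of 5 erythroid markers 2 were past the unadjusted limit and higher (158 to 177 FPKM in WT mice and 481, 296 and 146), of 5 macrophage markers 1 was past it and higher (41.6 to 48.3 FPKM and 61.1, 85.7 and 47.1), and of 6 fibroblast and tendon markers 1 was past it and lower (1416 to 2977 FPKM and 653, 2507 and 757). None of 5 adipocyte markers passed in limma, by the unadjusted p or after adjustment, with sums of 401 to 704 FPKM in WT mice and 783, 817 and 774. Most of each sum was *Fabp4* (395 to 678 FPKM in WT mice and 769, 740 and 713). In *Adipoq*, *Lep*, *Plin1* and *Cidec* the genotypes overlapped, and mouse 2276 was below WT mice 2277 and 2280. Mouse 2276 stood apart in another way, since its difference from the WT mean followed transcript length. The median of that difference was 0.74 on the log2 scale in 962 genes with a longest transcript under 1000 bases, and -0.49 in 2876 genes over 5000 bases. In mice 2278 and 2279 the medians of the same length classes lay between -0.12 and 0.01. In whole muscle, fewer cells of a type and less RNA per cell cannot be told apart.

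*Hras*, the gene that carries the allele, was at 36.8, 35.99 and 51.8 FPKM in WT animals 2277, 2280 and 2281. It was at 58.8, 28.9 and 16.0 FPKM in *Hras*G12V animals 2276, 2278 and 2279. The *Hras*G12V values lay on both sides of the WT values, with the highest and the lowest level of all 6 mice in that group, 3.67-fold apart. The means were 41.5 ± 8.92 FPKM in WT and 34.6 ± 21.9 FPKM in *Hras*G12V (SD, n = 3 each). The log2 fold change was -0.44 (SE 0.47, 95% interval -1.56 to 0.67, limma adjusted p = 0.797). Without mouse 2276 it was -0.92 (past the unadjusted limit of 0.05, limma adjusted p = 0.127), and without mouse 2279 it was 0.01, so the difference rested on which *Hras*G12V mice were included. The 2 mice below all WT mice were those with B and T cell markers, and the mouse above them all was the one with the length trend, in which genes of 2000 to 3000 bases had a median of 0.24 and *Hras* (2828 bases) stood at 0.52. With each library's trend over length removed the log2 fold change of *Hras* was -0.44 (SE 0.42, limma adjusted p = 0.727). The part of B and T cells, or of length, in the *Hras* values of single mice was not tested. The SD of log2 *Hras* was 0.94 among *Hras*G12V mice, and 10.6% of the genes tested had a higher one. Among WT mice it was 0.29, against a median over all genes of 0.13 in WT and 0.42 in *Hras*G12V.

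*Nras*, the other classical Ras gene on this list, was at 15.5, 18.3 and 17.9 FPKM in the WT mice and at 15, 19.0 and 18.5 FPKM in the *Hras*G12V mice. It was among the steadiest of the 8, with only 1.27-fold between the lowest and the highest of the 6 mice. The means were 17.2 ± 1.49 and 17.5 ± 2.18 FPKM (SD, n = 3 each), with a log2 fold change of 0.02 (SE 0.17, 95% interval -0.39 to 0.42, limma adjusted p = 0.986).

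*Rras*, *Rras2* and *Mras* form the R-Ras branch, whose products are known for roles in cell adhesion, vessels and, for M-Ras, in the phosphatase complex that activates Raf. *Rras* was at 22.04, 26 and 21.4 FPKM in WT animals 2277, 2280 and 2281 and at 59.8, 32.5 and 27.4 FPKM in *Hras*G12V animals 2276, 2278 and 2279. All 3 *Hras*G12V mice were above all 3 WT mice, which was so of no other of the 8 genes. The means were 23.2 ± 2.48 and 39.9 ± 17.4 FPKM (SD, n = 3 each). The log2 fold change of 0.70 did not pass the test (SE 0.31, 95% interval -0.04 to 1.45, limma adjusted p = 0.511). With 995 bases *Rras* has the shortest transcript of the 8, and mouse 2276 held its highest value, 1.37 on the log2 scale above the WT mean. Beside these values, the summed endothelial markers given above were 141, 138 and 141 FPKM in mice 2276, 2278 and 2279, and their part in the *Rras* values was not tested. In mice 2278 and 2279 *Rras* stood 0.49 and 0.25 above that mean, where genes under 1000 bases had medians of -0.12 and -0.11. Without mouse 2276 the log2 fold change was 0.37 (past the unadjusted limit of 0.05, limma adjusted p = 0.155), and with each library's trend over length removed it was 0.58 (SE 0.15, past the unadjusted limit, limma adjusted p = 0.375).

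*Rras2* was at 11.6, 13.4 and 13.5 FPKM in the WT and at 14.96, 12.5 and 13.9 FPKM in the *Hras*G12V mice. The genotypes overlapped, and the log2 fold change was 0.10 (SE 0.15, 95% interval -0.27 to 0.47, limma adjusted p = 0.876). *Mras* was at 3.36, 3.69 and 4.72 FPKM in the WT and at 2.95, 3.63 and 2.86 FPKM in the *Hras*G12V mice. Mice 2276 and 2279 were below all WT mice and mouse 2278 was within them, and the log2 fold change of -0.30 did not pass the test (SE 0.19, 95% interval -0.76 to 0.15, limma adjusted p = 0.633).

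The Raf kinases on the list differed most in level. *Araf*, whose product is the Raf with the weakest kinase activity, was at 62.1, 55.4 and 60.4 FPKM in the WT and at 66.7, 48.2 and 51.2 FPKM in the *Hras*G12V mice. *Braf*, whose product is the Raf with the highest basal activity towards MEK, was at 3.01, 2.76 and 2.77 FPKM in the WT and at 1.45, 2.86 and 3.18 FPKM in the *Hras*G12V mice. For both genes the *Hras*G12V values lay on both sides of the WT values. The log2 fold change of *Araf* was -0.11 (SE 0.20, 95% interval -0.59 to 0.37, limma adjusted p = 0.895). That of *Braf* was -0.25 (SE 0.30, 95% interval -0.97 to 0.46, limma adjusted p = 0.825). The lower *Braf* mean of the *Hras*G12V mice came from mouse 2276, and without it the log2 fold change was 0.08. *Braf* has the longest transcript of the 8 (9728 bases), it stood at -0.92 in mouse 2276 where genes over 5000 bases had a median of -0.49, and with the length trend removed its log2 fold change was -0.02.

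*Araf* was 20.6, 20.1 and 21.8 times as high as *Braf* in the WT mice and 46.0, 16.8 and 16.1 times as high in the *Hras*G12V mice. The log2 ratio of *Braf* to *Araf* differed by -0.14 between genotypes (exact permutation test, two-sided, p = 1, n = 3 each). Without mouse 2276 that difference was 0.33, with both remaining *Hras*G12V mice above all WT mice (exact permutation p = 0.1, the smallest possible).

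*Map2k1*, which encodes MEK1, the dual-specificity kinase that phosphorylates ERK, was at 23.5, 21.3 and 25.2 FPKM in the WT and at 31.2, 22.4 and 24.04 FPKM in the *Hras*G12V mice. Mouse 2276 was above all the others, and mice 2278 and 2279 were within the WT range. The log2 fold change was 0.14 (SE 0.19, 95% interval -0.32 to 0.59, limma adjusted p = 0.854), and without mouse 2276 it was -0.0045.

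**Figure D1:**
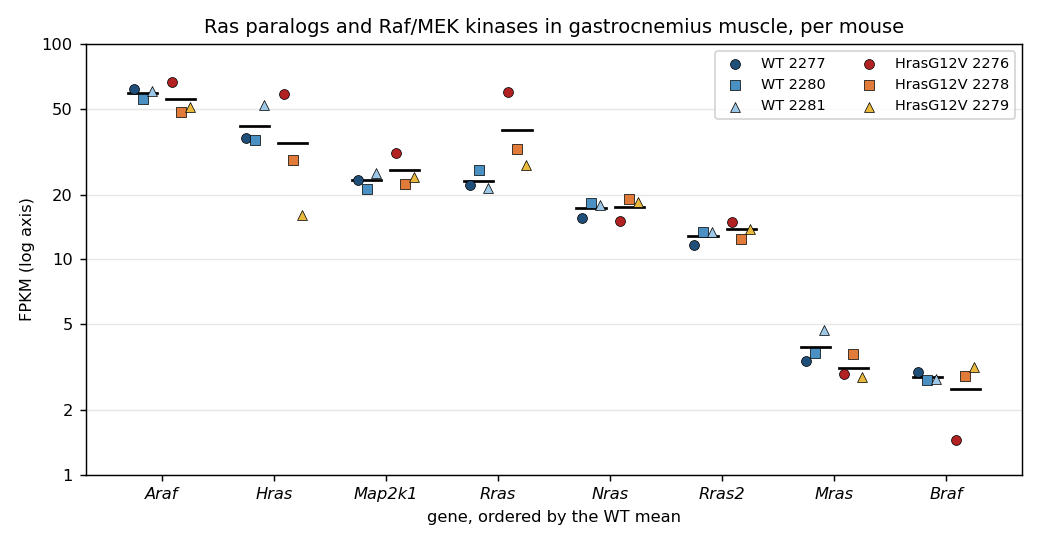
FPKM (log axis) of the 8 genes, with 1 point per mouse and a bar at the mean of each genotype. *Araf* is highest and *Mras* and *Braf* are lowest in both genotypes, and *Rras* is the gene whose genotypes do not overlap.

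In limma none of the 8 genes passed the limit of 0.05, either by the unadjusted p or after adjustment. Over all genes tested, 10.2% passed it by the unadjusted p and 0.0599% after adjustment. An unmoderated fit also called none of the 8 by the unadjusted p. Quantile normalization, scaling to the same total FPKM, array weights and removal of the length trend each called 1. Leaving out mouse 2276 called 2. The genotypes did not overlap in 1 of the 8 genes, against 18.5% of all genes (8.11% with all *Hras*G12V mice higher and 10.4% with all lower), so the share among the 8 was near the background. The median log2 fold change was -0.05 over the 8 genes and -0.03 over all genes tested. All 8 intervals given above hold values on both sides of 0, so a p above the limit does not show equal levels.

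**Figure D2:**
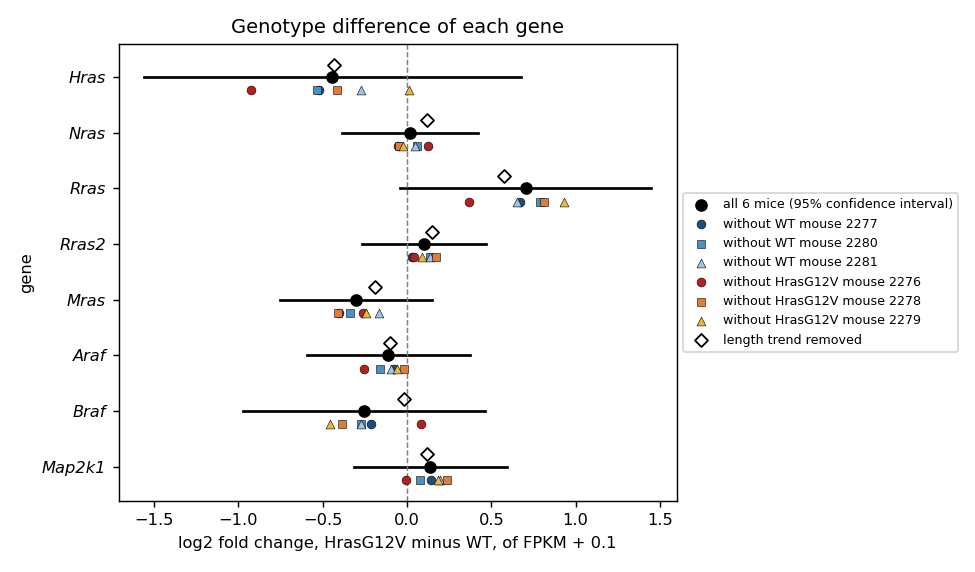
Log2 fold change of each of the 8 genes (*Hras*G12V minus WT, on log2(FPKM + 0.1)) with its 95% interval from limma. All 8 intervals include 0, and that of *Rras*, from -0.04 to 1.45, comes closest to excluding it.

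**Figure D3:**
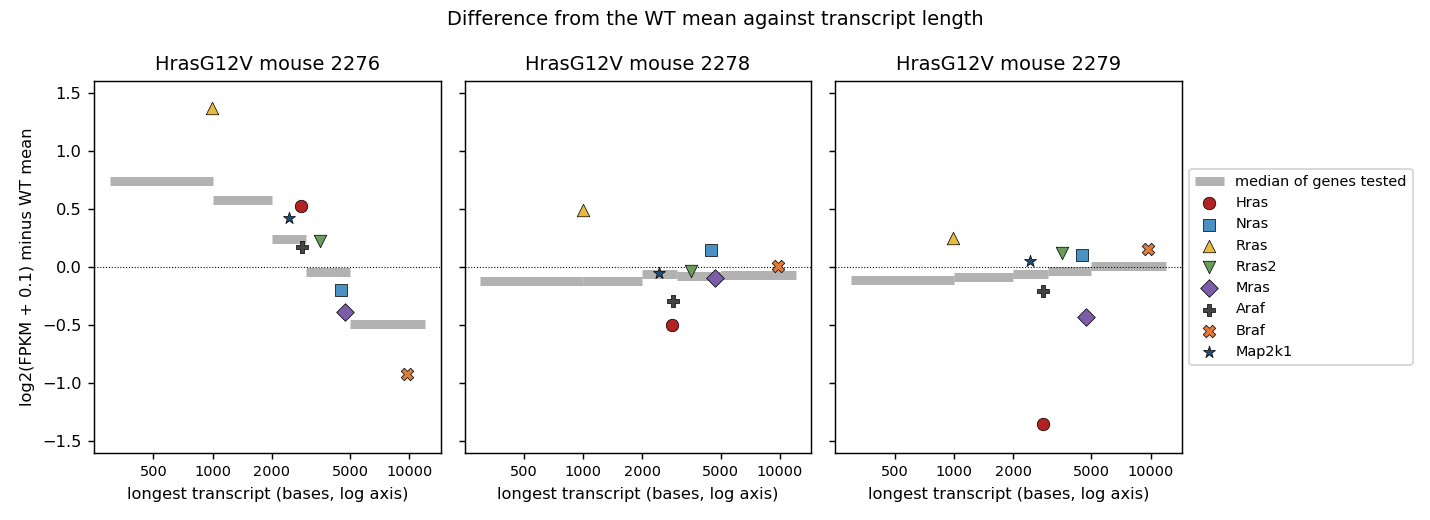
Difference from the WT mean, log2(FPKM + 0.1), of each of the 8 genes against the length of the longest transcript (log axis), in 1 panel per *Hras*G12V mouse, with gray bars at the median of all genes tested in 5 length classes. In mouse 2276 the gray bars go from 0.74 to -0.49 as length grows, and in the other panels they lie between -0.12 and 0.01.

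The levels of the 8 genes were also ranked within each mouse. In WT the means ranked *Araf*, *Hras*, *Map2k1*, *Rras*, *Nras*, *Rras2*, *Mras* and *Braf* from high to low, and in *Hras*G12V *Rras* stood second, before *Hras* and *Map2k1*, with the rest as in WT. *Araf* was the highest of the 8 and *Rras2* the sixth in each of the 6 mice. By their mean FPKM over the 6 libraries, 91.2% of the genes tested were below *Araf*, 86.8% below *Hras*, 84.3% below *Rras* and 80.5% below *Map2k1*. For *Nras*, *Rras2*, *Mras* and *Braf* these shares were 73.8%, 67.8%, 31.99% and 25.8%. Of the 28 pairs of the 8 genes, 23 had the same order in all 6 mice (exact sign-flip permutation test on the log2 difference within a mouse, two-sided, p = 0.03125, the smallest possible with 6 mice, adjusted p = 0.038 over 28 pairs). Genes of different length are less comparable in mouse 2276, and without it 23 pairs had the same order in the 5 other mice. The genes were thus ordered as *Araf*, then *Hras*, *Rras* and *Map2k1*, then *Rras2*, then *Mras* and *Braf*, with *Nras* below *Rras* and *Map2k1* and above *Rras2* in every mouse.

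The order was not the same in all mice for 5 pairs. *Hras* exceeded *Nras* in 5 of 6 mice, by 1.02 ± 0.76 on the log2 scale (exact permutation test, adjusted p = 0.07). The exception was mouse 2279, in which *Nras* was 0.21 above *Hras*. *Hras* and *Rras* differed by 0.25 ± 0.72, with *Hras* higher in 3 of 6 mice (exact permutation, adjusted p = 0.5). These were the WT mice, and *Rras* was higher in each *Hras*G12V mouse. *Hras* exceeded *Map2k1* in 5 of 6 mice, by 0.52 ± 0.59 (exact permutation, adjusted p = 0.101), and *Rras* exceeded *Map2k1* in 4 of 6, by 0.27 ± 0.42 (exact permutation, adjusted p = 0.227). *Mras* exceeded *Braf* in 5 of 6 mice, by 0.41 ± 0.40 (exact permutation, adjusted p = 0.07). *Hras* or *Rras* was in 4 of these 5 pairs. Among the 23 others, the widest was *Araf* over *Braf*, by 4.404 ± 0.53 on the log2 scale. The narrowest was *Nras* over *Rras2*, by 0.38 ± 0.20, and in mouse 2276 these genes were only 0.0040 apart.

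The summed FPKM of the 5 Ras paralogs on the list was 89.4, 97.4 and 109 in WT animals 2277, 2280 and 2281 and 151.5, 96.5 and 78.7 in *Hras*G12V animals 2276, 2278 and 2279. The sum does not include every Ras gene. The means were 98.7 ± 10.1 and 108.9 ± 38.0 FPKM (SD, n = 3 each, exact permutation p = 0.9). Since the paralogs of a mouse are divided by the same sum, their shares do not depend on how the libraries were scaled to each other, but in mouse 2276 they carry its trend over length, in which short transcripts stood higher and that of *Rras* is the shortest.

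*Hras* took 41.2%, 37.0% and 47.4% of the sum in the WT mice and 38.8%, 29.99% and 20.3% in the *Hras*G12V mice. It held the largest share in each WT mouse, and *Rras* did so in each *Hras*G12V mouse. *Rras* took 24.7%, 26.7% and 19.6% in the WT mice and 39.5%, 33.6% and 34.8% in the *Hras*G12V mice, with no overlap between genotypes, mouse 2276 left out or not. The mean share of *Rras* was 23.7% ± 3.66 in WT and 35.99% ± 3.09 in *Hras*G12V (SD, n = 3 each), a difference of 12.3 percentage points (exact permutation test, two-sided, p = 0.1, the smallest that 3 against 3 mice allow, adjusted p = 0.25 over 5 paralogs). For *Hras* it was 41.8% ± 5.26 and 29.7% ± 9.22, a difference of -12.1 points (exact permutation p = 0.2, adjusted p = 0.333).

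*Nras* took 17.4%, 18.8% and 16.4% in the WT and 9.90%, 19.7% and 23.5% in the *Hras*G12V mice (exact permutation p = 1). *Rras2* took 13.05% ± 0.746 and 13.5% ± 3.94 (exact permutation p = 0.9). *Mras* took 3.76%, 3.79% and 4.32% in the WT and 1.95%, 3.76% and 3.63% in the *Hras*G12V mice, without overlap by a narrow margin (3.7577% in mouse 2278 below 3.7583% in mouse 2277, exact permutation p = 0.1, adjusted p = 0.25). With 3 against 3 mice this exact test cannot give a p below 0.1 for any of these shares.

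**Figure D4:**
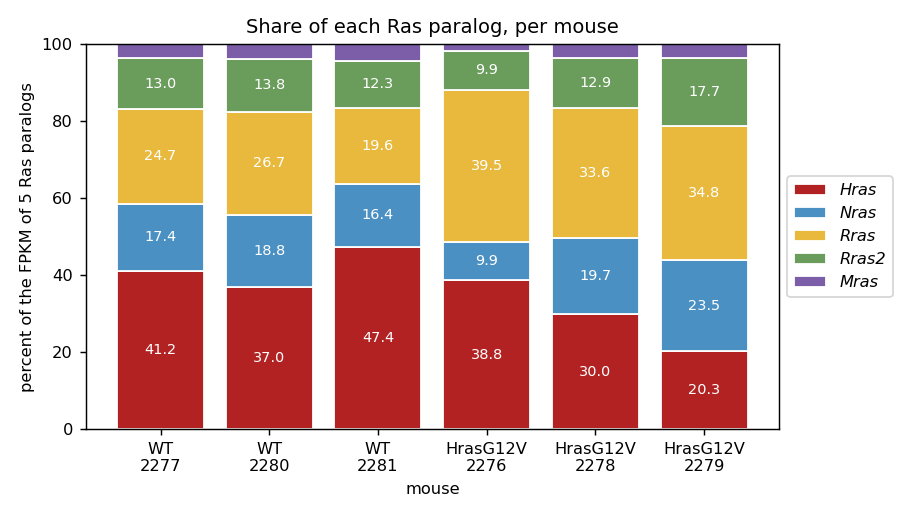
Share of the summed FPKM of *Hras*, *Nras*, *Rras*, *Rras2* and *Mras* (percent) taken by each paralog, with 1 bar per mouse. *Hras* is the largest part in the WT mice and *Rras*, at 33.6% to 39.5%, in the *Hras*G12V mice.

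*Hras* was 1.67, 1.38 and 2.42 times as high as *Rras* in the WT mice and 0.982, 0.891 and 0.584 times in the *Hras*G12V mice. The genotypes did not overlap, and the mean log2 ratio differed by -1.15 (exact permutation p = 0.1), but this ratio was chosen after its values were seen. *Rras* was 1.89, 1.93 and 1.59 times as high as *Rras2* in the WT mice and 4.0, 2.60 and 1.97 times in the *Hras*G12V mice. The log2 difference was 0.60 (exact permutation p = 0.1), and the genotypes were apart by a narrow margin (1.93 against 1.97). *Rras* was the only gene of the 8 without overlap, so this p is not separate from that result. Both ratios with *Rras* also carry the length trend of mouse 2276. The transcript of *Rras* has 995 bases, that of *Hras* 2828 and that of *Rras2* 3534. The part of length in these ratios was not tested. *Hras* was 2.37, 1.97 and 2.90 times as high as *Nras* in the WT mice and 3.92, 1.52 and 0.866 times in the *Hras*G12V mice, and here the genotypes overlapped (exact permutation p = 0.6).

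The genes around the cascade were described with the same fit, in 6 lists of 97 genes, 89 of which were tested. Of these 89, 6 had an unadjusted p below 0.05 with a higher level in *Hras*G12V and 4 with a lower one, against 5.18% and 4.99% of all genes in the same directions, and none passed after adjustment. A gene said below to have passed did so by the unadjusted p only.

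Transcripts that ERK signaling is known to raise had the highest median of the 6 lists, 0.39 over 19 tested genes, against -0.03 over all genes. Of the 19, 4 were higher and 1 lower at an unadjusted p below 0.05, and 8 did not overlap between genotypes, 6 of them higher and 2 lower in *Hras*G12V, against 8.11% and 10.4% of all genes. *Etv5*, an ETS transcription factor, was at 8.72, 8.28 and 9.002 FPKM in the WT mice and at 33.9, 20.8 and 25.2 FPKM in *Hras*G12V animals 2276, 2278 and 2279. Each *Hras*G12V mouse was above each WT mouse, with a log2 fold change of 1.58 (SE 0.21, limma adjusted p = 0.198). With the length trend removed it was 1.65, and it kept an unadjusted p below 0.05 in all 6 sets of 5 mice. *Ccnd1*, which encodes cyclin D1, was at 3.19 to 3.75 FPKM in the WT and at 7.94, 11.6 and 4.30 FPKM in the *Hras*G12V mice, a log2 fold change of 1.06 (SE 0.35, limma adjusted p = 0.439). *Myc* had a log2 fold change of 0.64 (limma adjusted p = 0.468), or 0.61 and not past the unadjusted limit with the length trend removed, and *Spry1*, an inhibitor of receptor signaling to Ras, one of 0.52 (limma adjusted p = 0.481). When 1 mouse was left out, their log2 fold changes stayed between 0.74 and 1.44 for *Ccnd1*, 0.45 and 0.83 for *Myc* and 0.40 and 0.72 for *Spry1*, while an unadjusted p below 0.05 was kept in 1, 2 and 1 of the 6 sets of 5 mice. Over all genes, the number past that limit was 606 to 709 in place of 1358 when 1 WT mouse was left out. *Epha4*, an ephrin receptor, was the only one past the limit and lower, with a log2 fold change of -0.79 (limma adjusted p = 0.433), past the limit in 4 of the 6 sets, in which it stayed between -0.93 and -0.58.

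Of the enzymes that attach, remove or carry the lipid anchors of Ras, 13 were tested, with a median of -0.11. The genotypes did not overlap in 1 that was higher and 2 that were lower, against 8.11% and 10.4% of all genes. *Lypla1*, an acyl-protein thioesterase that takes palmitate off H-Ras and N-Ras, was the only one past the unadjusted limit. It was at 58.3, 54.7 and 56.3 FPKM in the WT mice and at 28.6, 39.4 and 36.2 FPKM in the *Hras*G12V mice. The genotypes were well apart, with means of 56.4 ± 1.79 and 34.8 ± 5.54 FPKM (SD, n = 3 each) and a log2 fold change of -0.71 (SE 0.19, limma adjusted p = 0.382). It kept an unadjusted p below 0.05 in all 6 sets of 5 mice, and with the length trend removed its log2 fold change was -0.61.

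Among the other kinases, regulators and GTPases only 1 gene passed the unadjusted limit, against 10.2% of all genes. The counts without overlap in this paragraph stand against 8.11% of all genes higher and 10.4% lower. The 8 other kinases of the ERK1/2 and ERK5 cascades had log2 fold changes between -0.33 and 0.13, the highest being *Mapk7*, which encodes ERK5, with a median of -0.16, none past the limit and 1 lower without overlap. Of 16 tested Raf scaffolds and regulators none passed, and they ranged from *Ppp1cb* (a log2 fold change of -0.47), the catalytic phosphatase subunit of the complex that activates Raf, to its paralog *Ppp1ca* (0.27), with a median of -0.02 and 3 lower without overlap. Of 21 tested other Ras-family GTPases, with a median of 0.01 and 1 lower without overlap, *Rrad* was the only one past the limit. It encodes a GTPase that inhibits calcium channels, and it was at 3.22, 2.74 and 1.30 FPKM in the WT mice and at 7.27, 4.75 and 3.15 FPKM in the *Hras*G12V mice, so the genotypes overlapped (log2 fold change 1.04, limma adjusted p = 0.483, between 0.67 and 1.34 in the 6 sets of 5 mice and past the limit in 2 of them).

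In the stress kinase cascades, which run beside the ERK cascade, 12 genes were tested, with a median of -0.20, and 5 did not overlap between genotypes, 1 of them higher and 4 lower, against the same 8.11% and 10.4% of all genes. *Mapk11*, encoding p38 beta, was at 1.05 ± 0.0338 FPKM in WT and 2.00 ± 0.495 FPKM in the *Hras*G12V mice (SD, n = 3 each), a log2 fold change of 0.84 (limma adjusted p = 0.412), past the limit in all 6 sets of 5 mice. The upstream kinases of stress signaling *Map2k4* (MKK4) and *Map3k7* (TAK1) were lower, with log2 fold changes of -0.41 (limma adjusted p = 0.488) and -0.40 (limma adjusted p = 0.491). They stayed between -0.47 and -0.35 and between -0.49 and -0.29 in the 6 sets and passed in 1 and 2 of them, and with the length trend removed *Map3k7* no longer did.

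**Figure D5:**
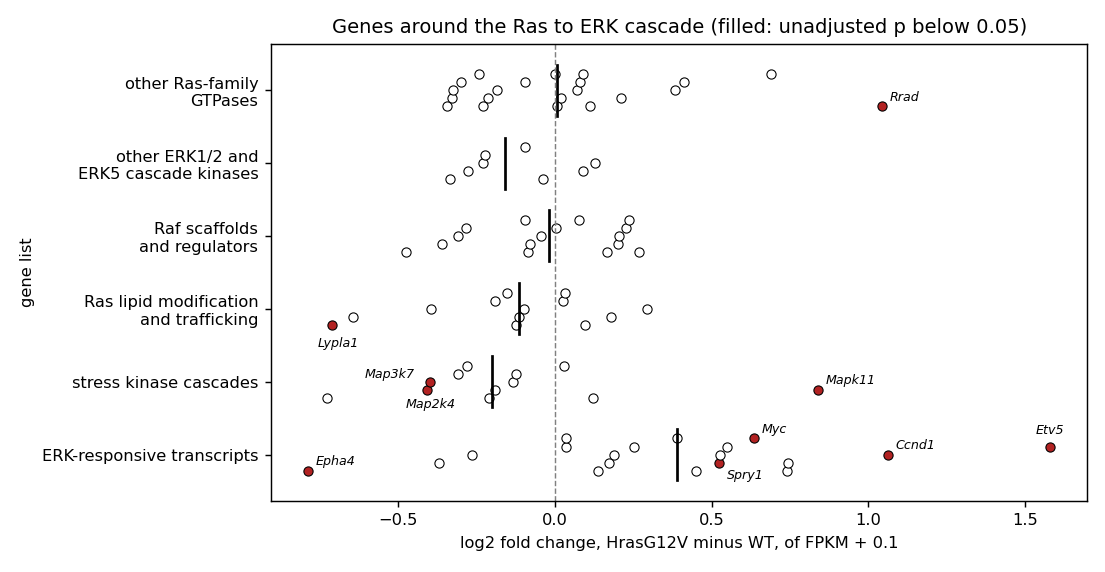
Log2 fold change (*Hras*G12V minus WT, on log2(FPKM + 0.1)) of each of the 89 tested genes in 6 lists around the cascade, with a bar at the median of each list and filled points for an unadjusted p below 0.05. The ERK-responsive transcripts have the highest median, 0.39, and *Etv5*, at 1.58, is the point farthest from 0.

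The genes whose levels followed *Hras* most closely over the 6 mice were *Tomm40l*, *Leprel4*, *Vtn*, *Mlst8* and *Arf2*, with Pearson's r of log2 values between 0.994 and 0.996. *Tomm40l*, for instance, was at 19.2, 17.9 and 23.7 FPKM in the WT mice and at 28.6, 14.3 and 7.80 FPKM in *Hras*G12V animals 2276, 2278 and 2279. All 5 shared the feature that mouse 2276 was highest and mouse 2279 lowest. They were picked from 12177 genes, of which 188 had an r above 0.95, and the points share the libraries and their length and cell type differences, so these values are a description.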

How the data were processed

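RNA from 6 gastrocnemius muscles, 1 library per mouse, was prepared with a stranded mRNA kit and sequenced as single-end reads of nominally 50 bases. The authors mapped the reads with TopHat and used Cufflinks and Cuffnorm to make the deposited FPKM values, which Cuffnorm scales between libraries. The submitters' processing notes name GRCm38 and mm10, and the annotation and tool versions were not given in the sources used here. The deposited values sum to 413020 to 814013 FPKM per library, which is not a depth. Ratios of low values fell into no steps of whole reads (the fullest interval, 0.02 wide on the log2 scale, held 1.12% to 6.70% of genes per pair of libraries below 0.2 FPKM), so no count model was used.

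Samples were grouped by the genotype in their labels. Genotypes were compared on log2(FPKM + 0.1) by an empirical Bayes fit with trend in limma 3.58.1, run in R 4.3.3 (Benjamini-Hochberg over 13359 genes with a mean of at least 0.5 FPKM), which understates changes of low genes. The fit was first tested on simulated data. It found 188 to 194 of 200 changed genes and called at most 5.43% of the unchanged ones at an unadjusted p below 0.05. The simulation gave a gene the same spread in both genotypes and no trend over length, so it does not cover these features of the data. Levels, shares and ratios were compared with exact permutation tests in Python 3.11.15. Transcript lengths (found for 99.3% of genes tested) and sequences came from GENCODE vM21. Alternatives were other pseudocounts, filters, scalings and weights, no moderation and leaving out each mouse. Removal of the trend over length, and fits of mouse 2276 alone, were chosen after seeing the data.

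The 8 genes and all lists were chosen with earlier results of these data known. Genes named are all 8, every list gene with an unadjusted p below 0.05 or otherwise the highest and lowest of its list, and the 5 genes most correlated with *Hras*. A gene that this rule covers and a sequence window are not reported here.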

Additional observations from a re-analysis of the deposited data

How the results depend on the processing

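With 3 mice per genotype and 1 library per mouse, the test rests on a spread that differed between genotypes, and exact tests of shares and ratios cannot go below 0.1. The mice are described as littermates, but no paired analysis was possible because which mice shared a litter is not given. The number of pairs in the same order was 23 with other pseudocounts and 23 to 26 when 1 mouse was left out (26 without mouse 2279), though 5 mice allow no p below 0.0625. None of the 8 genes had an unadjusted p below 0.05. That number was 1 with quantile normalization, 1 with the same total FPKM, 1 with array weights (*Hras*, at a log2 fold change of -0.73) and 1 with the length trend removed, 3 in mouse 2276 alone against WT, and 0 to 2 when 1 mouse was left out. The cause was not tested. For *Rras*, the log2 fold change stayed between 0.37 and 0.93 when 1 mouse was left out, and it passed the unadjusted limit without mouse 2276 or 2279, after quantile normalization, at the same total and with the length trend removed. Of the 89 tested list genes 10 were past the limit, and this number was 3 at the same total, 19 with array weights, 40 in mouse 2276 alone, and 3 to 22 when 1 mouse was left out (22 without mouse 2276, 3 without mouse 2281). Over all genes it was 1358, and 3979 without mouse 2276, 3042 with array weights and 712 at the same total, and 606 to 709 without a WT mouse, while the number past the adjusted limit went from 8 to 1291 without mouse 2276. When 1 mouse was left out, the log2 fold change ranged from -0.92 to 0.010 for *Hras*, -0.056 to 0.12 for *Nras*, -0.41 to -0.17 for *Mras*, 0.031 to 0.17 for *Rras2*, -0.25 to -0.018 for *Araf*, -0.46 to 0.082 for *Braf* and -0.0045 to 0.23 for *Map2k1*. The direction turned for *Hras* (0.010 without mouse 2279, 0.52 in mouse 2276 alone), *Nras* (-0.056, -0.046 and -0.026 without mice 2277, 2278 and 2279, -0.20 in mouse 2276 alone), *Araf* (0.17 in mouse 2276 alone), *Braf* (0.0099 with array weights, 0.082 without mouse 2276) and *Map2k1* (-0.0045 without mouse 2276). The *Braf* to *Araf* difference was -0.40 to 0.33, and that of the *Hras* share -16.7 to -7.46 points, when 1 mouse was left out. The fit of mouse 2276 alone assumes that a single mouse varies like the WT mice.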
